A study of Mus musculus with 8 samples.

Results

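Old Asxl2 knockout (KO) mice were compared with old wild-type (WT) mice in the stem and progenitor fraction of the bone marrow. Members are the libraries labelled with an age over 1 year: 2 KO and 2 WT libraries, 4 of the 8 in the series. The other 4 libraries, 2 KO and 2 WT, are from young mice of 8 to 12 weeks. Each library holds polyA RNA from LSK cells, which lack mature lineage markers and carry Sca1 and Kit, amplified with a low-input kit. Old litter 1 gave 1 KO and 1 WT mouse in batch 1, and old litter 2 gave 1 of each in batch 2. The KO mice are labelled only as Asxl2 KO, and the allele, the strain and the use of Cre were not given in the sources used here. Each litter gave 1 mouse of each genotype, so each group has 2 mice. The p-values of the main fit rest on a spread between mice pooled over all 8 libraries, old and young. That fit has 3 residual degrees of freedom, so its p-values do not measure the spread of the old mice alone. An exact permutation test of 2 against 2 libraries could not go below 0.333. Groups said below not to overlap stand at that 0.333, and the share of all genes without overlap was not counted. The ranked genes were chosen as called and 2-fold apart in both litters, so their lack of overlap is largely set by that choice.

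Asxl2 is a scaffold of the Polycomb repressive deubiquitinase, in which Asxl proteins bind and activate the enzyme Bap1. That enzyme removes ubiquitin from histone H2A, a mark that Polycomb repressive complex 1 places on silenced genes. In blood, loss of Asxl proteins is known to disturb stem cell self-renewal and myeloid development, and the genes ASXL1 and ASXL2 are mutated in human myeloid leukemia.

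The first question was whether the labels and the gate hold in these libraries. Asxl2 itself (ENSMUSG00000037486, mm10 chromosome 12, 3426857 to 3506852, plus strand) was at 5.34 and 4.99 TPM in the old KO libraries of litters 1 and 2, and at 30.0 and 23.0 TPM in old WT. TPM is the deposited level, scaled for transcript length and library depth. Both KO libraries lay far under both WT libraries, and the fitted log2 difference was -1.88 (SE 0.25, adjusted p = 0.0141). This is the sum over the gene's transcripts. The longest, ENSMUST00000092003 of 11934 bases, went the other way in the old mice, with 304.3 and 242.4 estimated counts in KO and 191.7 and 65.6 in WT, or 0.376 and 0.565 against 0.296 and 0.138 TPM. The call was lost with litter as a block (adjusted p = 0.0741), without the KO library of litter 1 (0.115) and without the WT library of litter 2 (0.0860), and it stayed without the WT library of litter 1 (0.0327). Kit, the receptor used in the gate, was at 63.4 and 87.4 TPM in KO and 146 and 219 TPM in WT (log2 -0.98, SE 0.34, adjusted p = 0.141). Ly6a, which encodes Sca1, was at 661 and 355 TPM in KO and 237 and 276 TPM in WT (log2 1.11, SE 0.31, adjusted p = 0.0886). Both gate genes were plainly present in each library, with no overlap between genotypes and no call. Defining genes of mature cells outside the gate were near 0: Cd3e did not exceed 0.313 TPM and Ly6g 1.81 TPM in the old libraries.

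The WT library of litter 1 stood apart in granulocyte RNA, which sets how the 2 litters can be read. Ngp, a granule protein of maturing neutrophils, was at 0.21 TPM there and at 420 TPM in the WT library of litter 2, against 98.3 and 13 TPM in the KO libraries of litters 1 and 2. Prg2, the major basic protein of eosinophil granules, was at 1.0 and 1150 TPM in WT and at 489 and 522 TPM in KO. Within litter 1 both genes were therefore higher in KO, and within litter 2 both were lower. The litters also differed in sex-linked RNA: Xist was at 3.33 and 3.61 TPM in KO and WT of litter 1 and at most 0.0488 TPM in litter 2, where the Y-linked gene Ddx3y was at 26.9 and 42.1 TPM. Litter, batch and these sex-linked levels cannot be told apart, but KO and WT were matched for all of them within a litter. In bulk RNA, fewer cells of a type and less RNA per cell cannot be told apart.

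For these reasons each change was read in 2 ways: in a fit over all libraries, with batch as a term, and within each litter as the difference of log2 CPM (counts scaled to library size, prior count 2) between the KO and the WT mouse. Of 25543 genes tested, edgeR's quasi-likelihood test called 52 higher (0.204%) and 114 lower (0.446%) in old KO at an adjusted p under 0.05. Of these 166 genes, 51 of the 52 higher and all 114 lower ones had the same direction in both litters, and 42 higher and 98 lower ones changed at least 2-fold in each. The litters are part of the fit, so this describes the called genes and is no second test of them. Over all genes tested, 37.6% were higher and 31.4% lower in both litters by any size, 12.1% were at least 2-fold higher and 1.78% at least 2-fold lower in both, and 4.37% moved at least 2-fold in opposite directions. These shares include 8127 genes that are not protein-coding, whose median change was 0.7. For changes of any size, no share was taken over protein-coding genes alone. Much of the excess on the higher side was RNA outside protein-coding genes: of the 3100 genes at least 2-fold higher in both litters 1815 were not protein-coding, against 69 of the 455 lower ones. That RNA made up 4.83% and 4.32% of the counts in old KO and 3.16% and 3.26% in old WT. Among 11726 protein-coding genes of at least 2 TPM, 248 were 2-fold higher and 279 were 2-fold lower in both litters, a near-even split.

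**Figure D1:**
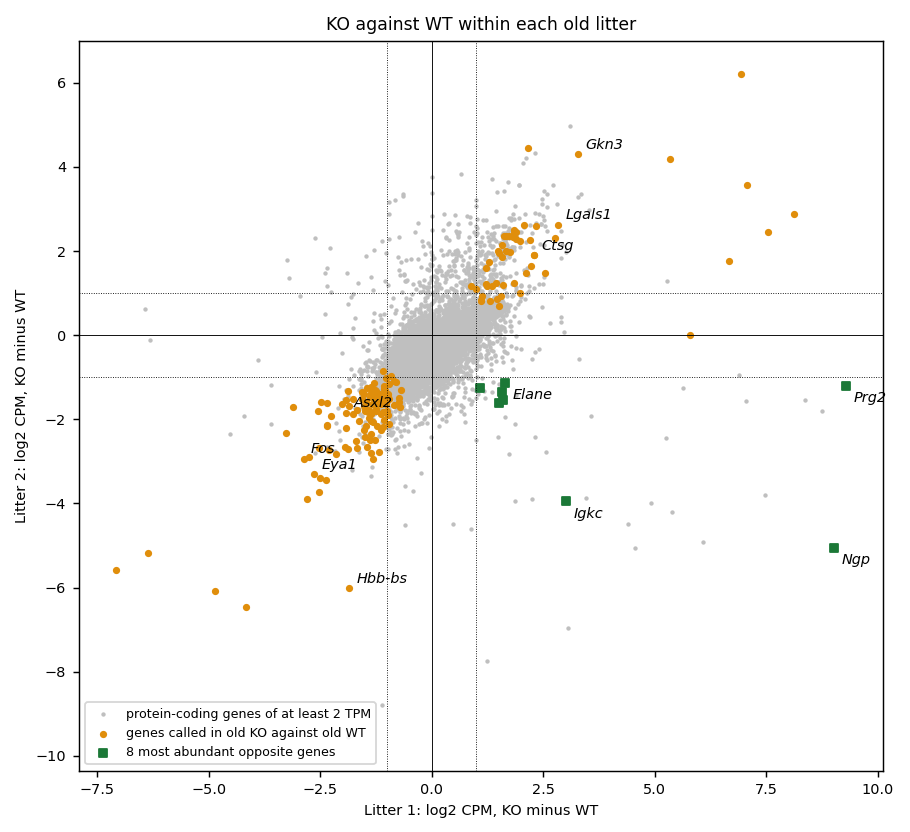
Each point is a gene, placed by its KO minus WT difference in log2 CPM within old litter 1 (horizontal axis) and old litter 2 (vertical axis). Grey points are protein-coding genes of at least 2 TPM, orange points are the 166 called genes, green squares are the 8 most abundant genes with opposite changes, and dotted lines mark 2-fold. Called genes lie in the upper right and lower left, while Ngp, Prg2 and Igkc lie in the lower right.

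The calls leaned on single libraries to different degrees, and leaving out any 1 old library lost most of them. Such a fit keeps 1 mouse in that group, so lower power and reliance on the mouse left out cannot be told apart. Without the granulocyte-poor WT library of litter 1 the test called 109 genes, 7 higher and 102 lower, of which 59 were among the 166. Without the WT library of litter 2 it called 6, all higher and none shared. Without the KO library of litter 1 it called 10, and without that of litter 2 it called 81. With litter as a block over the 8 libraries it called 12 genes, 5 higher and 7 lower, and with the block on the 4 old libraries alone 1496. Of the 24 genes ranked highest and lowest below, 8 passed with the block over 8 libraries: Gkn3, Lgals1, Ctsg, Plk2, Eya1, Fos, Mmrn1 and Pbx3. The other 16 had adjusted p from 0.0628 (Trib2) to 0.137 (Hbb-bs) there. Without the WT library of litter 1, 3 of the 12 highest and 10 of the 12 lowest still passed. Without that of litter 2 none of the 24 did, with adjusted p from 0.0816 (Eya1) to 0.231 (Tmeff2).

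Antigen receptor segments aside, the falls that passed in the most of the 20 alternatives run were those of Eya1, Fos, Mmrn1, Pbx3 and Plk2. Eya1, which acts as a homeodomain factor's coactivator and is also a phosphatase (ENSMUSG00000025932, minus strand of chromosome 1, 14168954 to 14310235), was at 2.69 and 3.18 TPM in old KO and at 21.9 and 25.4 TPM in old WT. The KO levels were about equal and far from the WT levels, and the fitted log2 difference was -2.96 (SE 0.29, adjusted p = 0.00824). It passed in 18 of 20 alternatives, the most of any called gene together with Lgals1. Pbx3, a homeodomain partner of Hox proteins (ENSMUSG00000038718, chromosome 2, 34171457 to 34373142, minus strand), was at 1.24 and 2.41 TPM in KO and 12.4 and 14.9 TPM in WT (log2 -2.84, SE 0.31, adjusted p = 0.00824). Its litter differences of -2.76 and -2.89 were nearly the same. Mmrn1, a multimerin of platelets, endothelium and stem cells (ENSMUSG00000054641, chromosome 6, 60924976 to 60989378, plus strand), was at 7.0 and 13.3 TPM in KO and 48.2 and 135 TPM in WT (log2 -2.89, SE 0.32, adjusted p = 0.00824). In each litter the WT level was several times the KO level, although the WT mice themselves differed widely. Plk2, a stress-responsive polo-like kinase (ENSMUSG00000021701, chromosome 13, 110395046 to 110400844, plus strand), was at 1.12 and 1.85 TPM in KO and 8.74 and 19.1 TPM in WT (log2 -2.99, SE 0.35, adjusted p = 0.00850).

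Fos, the immediate early partner of Jun in the AP-1 factor (ENSMUSG00000021250, chromosome 12, 85473890 to 85477273, plus strand), was at 3.65 and 5.45 TPM in old KO and 39.9 and 39.5 TPM in old WT. The WT mice of both litters had the same level, and the fitted log2 difference was -2.92 (SE 0.39, adjusted p = 0.0141), with litter differences of -2.87 and -2.94. The call was lost without the KO library of litter 1 (adjusted p = 0.122).

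The remaining 7 lowest genes were Pros1, Trib2, Mcoln3, B3galnt1, Rab36, Hbb-bs and Mab21l2. Pros1, the anticoagulant protein S and a ligand of the TAM receptors, was at 1.5 and 2.28 TPM in KO and 9.38 and 14.0 TPM in WT (log2 -2.51, SE 0.33, adjusted p = 0.0141). Gas6, the other TAM ligand, named here after its values were seen, was at 2.78 and 5.14 TPM in KO and 14.1 and 32.7 TPM in WT (log2 -2.35, SE 0.31, adjusted p = 0.0141). Both ligands were thus lower in KO in each litter, with no overlap between the groups. Gas6 did not pass once litter entered as a block (adjusted p = 0.0564). Trib2, a pseudokinase that directs protein turnover, was at 1.07 and 1.18 TPM in KO and 7.49 and 7.66 TPM in WT (log2 -2.61, SE 0.35). Mcoln3, a cation channel of endosomes, was at 0.318 and 0.648 TPM in KO and 4.44 and 2.97 TPM in WT (log2 -2.82, SE 0.41). B3galnt1, the globoside synthase, was at 0.287 and 0.387 TPM in KO and 2.39 and 5.26 TPM in WT (log2 -3.29, SE 0.52). Rab36, a small GTPase of membrane traffic, was at 0.690 and 0.660 TPM in KO and 3.90 and 4.96 TPM in WT (log2 -2.54, SE 0.40). These 4 genes had adjusted p from 0.0141 to 0.0220.

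The last 2 of the lowest genes had uneven levels. Hbb-bs, an adult beta globin (ENSMUSG00000052305, chromosome 7, 103826534 to 103828096, minus strand), was at 2.94 and 3.44 TPM in KO and 13.9 and 173 TPM in WT (log2 -4.44, SE 0.84, adjusted p = 0.0458). The fall was 1.85 on the log2 CPM scale in litter 1 and 6.01 in litter 2, so its size rested on the WT mouse of litter 2. Hbb-bs has a near-identical neighbour, Hbb-bt, which was at 59.9 and 36.7 TPM in KO and 31.7 and 49.3 TPM in WT, so reads could be split between the copies. Mab21l2, a developmental nuclear gene (ENSMUSG00000057777, chromosome 3, 86545581 to 86548629, minus strand), was at 0 and 0.0157 TPM in KO and 2.83 and 1.36 TPM in WT. It had 1 count over both KO libraries against 493 over both WT libraries, a 453-fold ratio after scaling. The exact 95% counting interval, 80.9 to 17900, leaves out the spread between mice, and Mab21l2 had 362 and 131 counts in the WT libraries. Its adjusted p was 0.0213, and 0.0902 without the WT library of litter 1.

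Outside antigen receptor segments and predicted gene models, genes higher in old KO were led by Gkn3. They included surface and granule genes of the monocyte and granulocyte lines. Of the 52 higher calls 6 were antigen receptor segments, with changes up to 11.09 (Igkv4-57). Gkn3, a gastrokine gene also known from arterial endothelium (ENSMUSG00000030048, chromosome 6, 87383256 to 87388935, minus strand), was at 26.3 and 54.0 TPM in old KO and 3.72 and 2.56 TPM in old WT (log2 3.89, SE 0.46, adjusted p = 0.00850). Lgals1, which encodes galectin-1, a sugar-binding protein (ENSMUSG00000068220, chromosome 15, 78926725 to 78930465, plus strand), was at 136 and 172 TPM in KO and 26.7 and 26.5 TPM in WT (log2 2.72, SE 0.31, adjusted p = 0.00824). The WT mice had the same level in both litters, and KO exceeded it by 2.84 and 2.63 on the log2 CPM scale. Cd68, a lysosomal membrane protein of myeloid cells (ENSMUSG00000018774, chromosome 11, 69664213 to 69666153, minus strand), was at 100 and 83.9 TPM in KO and 32.5 and 32 TPM in WT (log2 1.81, SE 0.24, adjusted p = 0.0141). Gkn3, Lgals1 and Cd68 were the 3 of the 12 highest genes that still passed without the WT library of litter 1.

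Ctsg, the granule protease cathepsin G of early granulocyte progenitors (ENSMUSG00000040314, chromosome 14, 56099881 to 56102574, minus strand), was at 308 and 465 TPM in old KO and 87.9 and 120 TPM in old WT (log2 2.06, SE 0.30, adjusted p = 0.0192). Its groups did not overlap and it was higher in KO in both litters, but the call was lost without the WT library of litter 1 (adjusted p = 0.0840). Ms4a6c, a membrane protein of monocytes, was at 50.0 and 68.0 TPM in KO and 14.1 and 22.4 TPM in WT (log2 1.92, SE 0.27, adjusted p = 0.0192). Ccr1, a receptor for inflammatory chemokines, was at 9.68 and 22.0 TPM in KO and 2.86 and 4.41 TPM in WT (log2 2.25, SE 0.32, adjusted p = 0.0192). Gp1bb, a subunit of the platelet receptor for von Willebrand factor, was at 30.9 and 19.1 TPM in KO and 7.68 and 5.28 TPM in WT (log2 2.11, SE 0.35, adjusted p = 0.0279). These are genes of different blood lineages, and none of the last 3 passed without the WT library of litter 1 (adjusted p = 0.0524 for Ms4a6c, 0.0716 for Ccr1 and 0.0839 for Gp1bb).

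The other 5 of the 12 highest genes were Phf11d, Lmo1, Pkd2l1, Olfr632 and Tmeff2. Phf11d, a gene of the PHD finger Phf11 cluster, was at 46.7 and 48.4 TPM in KO and 9.52 and 16.6 TPM in WT (log2 2.02, SE 0.30, adjusted p = 0.0198). It belongs to a cluster of near-identical copies, so its counts could be shared with them. Lmo1, a LIM-domain transcription cofactor, was at 22.8 and 27.5 TPM in KO and 10.7 and 6.07 TPM in WT (log2 1.89, SE 0.33, adjusted p = 0.0328). Pkd2l1, a polycystin cation channel, was at 2.57 and 6.37 TPM in KO and 0.770 and 0.270 TPM in WT (log2 3.45, SE 0.60, adjusted p = 0.0333). Olfr632, an odorant receptor gene, was at 6.77 and 8.84 TPM in KO and 1.34 and 1.67 TPM in WT (log2 2.60, SE 0.49, adjusted p = 0.0469). Tmeff2, a transmembrane protein with follistatin-like domains, was at 5.78 and 4.17 TPM in KO and 2.33 and 0.634 TPM in WT (log2 2.36, SE 0.46, adjusted p = 0.0488). In all 5 each KO library exceeded each WT library, and all 5 calls were lost without the WT library of litter 1, with adjusted p from 0.0632 (Phf11d) to 0.118 (Olfr632 and Tmeff2).

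**Figure D2:**
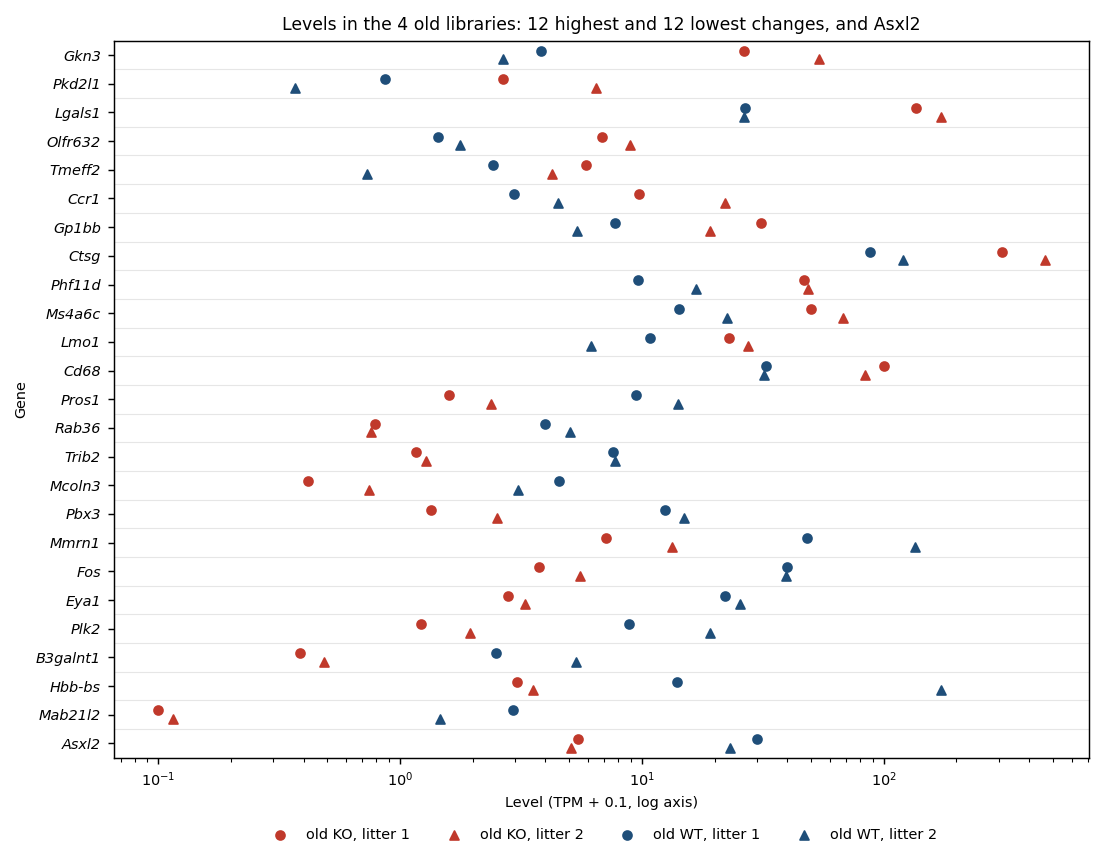
Levels in TPM (with 0.1 added, log axis) of the 12 highest and 12 lowest genes and Asxl2 in the 4 old libraries. Red marks KO and blue marks WT, with circles for litter 1 and triangles for litter 2. KO and WT libraries do not overlap for any gene shown, which is largely set by the choice of called genes 2-fold apart in both litters. The widest gap between WT mice is in Hbb-bs, at 13.9 and 173 TPM.

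The start-site sequences of 5 of these genes are shown: for each direction the 2 ranked genes with the widest change that the promoter table holds (Pkd2l1, Lgals1 and Olfr632, ranked above Tmeff2, have no entry), and Fos, because its old and young litters differed in direction. The window runs from 250 bases before to 50 bases after the gene's start in RefSeq (build GRCm38.p6, 5′ to 3′ on the gene's strand), and 18 of the 24 genes were in that table. Capitals mark matches, on either strand, to the letters TGTGGT or else TGCGGT for RUNX factors, to AGATAA for the GATA factors, to CCGGAAG for the ETS family, to TGACTCA for the factor AP-1 and to CAGCTG for an E-box. None of these motifs overlaps another in the windows shown. The Fos window was added after its values were seen, and the other 4 follow the rank rule.
Gkn3, chr6:87388886-87389185, minus strand
Gkn3: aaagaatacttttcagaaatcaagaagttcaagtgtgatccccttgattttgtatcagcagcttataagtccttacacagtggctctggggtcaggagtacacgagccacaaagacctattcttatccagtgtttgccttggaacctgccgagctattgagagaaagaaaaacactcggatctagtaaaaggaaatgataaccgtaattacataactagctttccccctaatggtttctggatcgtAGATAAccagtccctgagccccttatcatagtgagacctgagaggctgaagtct
Tmeff2, chr1:50927273-50927572, plus strand
Tmeff2: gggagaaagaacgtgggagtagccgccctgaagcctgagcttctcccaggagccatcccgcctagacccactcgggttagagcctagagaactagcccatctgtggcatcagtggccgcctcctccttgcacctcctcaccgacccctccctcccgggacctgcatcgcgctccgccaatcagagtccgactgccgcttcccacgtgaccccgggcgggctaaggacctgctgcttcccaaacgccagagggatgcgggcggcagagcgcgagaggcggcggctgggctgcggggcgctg
Mab21l2, chr3:86548234-86548533, minus strand
Mab21l2: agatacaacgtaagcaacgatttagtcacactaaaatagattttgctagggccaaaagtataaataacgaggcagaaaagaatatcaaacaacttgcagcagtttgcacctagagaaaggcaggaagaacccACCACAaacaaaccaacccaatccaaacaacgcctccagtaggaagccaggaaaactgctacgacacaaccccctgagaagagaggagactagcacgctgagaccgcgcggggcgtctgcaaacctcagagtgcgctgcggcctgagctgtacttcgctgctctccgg
Hbb-bs, chr7:103827879-103828178, minus strand
Hbb-bs: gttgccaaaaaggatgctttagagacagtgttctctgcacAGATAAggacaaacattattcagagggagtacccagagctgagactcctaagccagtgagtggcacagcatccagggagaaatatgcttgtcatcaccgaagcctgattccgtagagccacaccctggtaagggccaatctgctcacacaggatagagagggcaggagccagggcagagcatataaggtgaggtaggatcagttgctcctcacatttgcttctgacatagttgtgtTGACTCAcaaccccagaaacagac
Fos, chr12:85473640-85473939, plus strand
Fos: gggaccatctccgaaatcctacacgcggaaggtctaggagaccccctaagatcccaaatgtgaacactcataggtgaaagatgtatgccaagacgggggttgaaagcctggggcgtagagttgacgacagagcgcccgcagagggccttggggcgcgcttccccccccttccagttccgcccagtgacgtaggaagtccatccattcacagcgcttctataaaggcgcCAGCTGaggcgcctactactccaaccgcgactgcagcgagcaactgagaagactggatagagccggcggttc

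The Gkn3 window held 1 GATA match, which ends just after the start. Hbb-bs held 1 GATA match upstream and 1 AP-1 match after the start, Mab21l2 held the TGTGGT form of RUNX on the opposite strand, and Fos held the E-box. Tmeff2 held no match to these letters. Over all 32851 promoters of the same length, 11.2% held the GATA letters, 5.2% AP-1, 16.8% TGTGGT, 6.45% TGCGGT, 8.86% ETS and 16.3% the E-box. A match is a description of letters and not of binding.

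Called members of the gene lists outside the ranked genes follow list by list. With litter as a block over 8 libraries, Tsc22d3 was the 1 of those named below to pass, and the others had adjusted p from 0.0804 (Gfi1, Plac8, Plek, Dusp1 and S1pr1) to 0.135 (Rpl27). Without the WT library of litter 1, Fhl1, Emcn, Jam3, S1pr1, Dusp1 and Egr1 passed and the others did not. Without the WT library of litter 2 none did. Gfi1, a repressor needed for stem cell quiescence and granulocyte development, was at 15.6 and 20.7 TPM in old KO and 50.9 and 51.1 TPM in old WT (log2 -1.29, SE 0.24, adjusted p = 0.0462). Eya2, a relative of Eya1 named after its values were seen, was at 40.8 and 32.6 TPM in KO and 98.8 and 102 TPM in WT (log2 -1.15, SE 0.23, adjusted p = 0.0488). Of 35 hematopoietic transcription factors these 2 and Eya1 were called, all lower. In both litters 21 of the 35 were lower and 4 higher, beside 31.4% and 37.6% of all genes. The median change of the list was -0.28, against 0.067 over all genes and -0.24 over protein-coding genes of at least 2 TPM. As a group the factors thus sat near the protein-coding median, with the Eya genes and Gfi1 well under it. The list median was -0.47 without the WT library of litter 1 and -0.14 without that of litter 2.

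Hox, Pbx and Meis genes, which encode the homeodomain network of stem cells, gave 1 call in 23 tested, Pbx3. The median was -0.62, with -0.18 in litter 1 and -0.87 in litter 2, and 13 members were lower and 5 higher in both litters. Without the WT library of litter 2 the median was -0.40. Of all genes 31.4% were lower and 37.6% higher, and the protein-coding median was -0.24. Hoxa9, a driver of myeloid leukemia, was at 58.4 and 78.8 TPM in KO and 152 and 167 TPM in WT (log2 -1.01, SE 0.20, adjusted p = 0.0501), just outside the threshold. Its partner Meis1 was at 131 and 144 TPM in KO and 218 and 251 TPM in WT (log2 -0.60, SE 0.20, adjusted p = 0.123). Groups of both genes were separate without a call, which for 2 against 2 libraries is an exact permutation p of 0.333.

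Of 30 stem cell identity genes none was called in edgeR's test (19 had an unadjusted p under 0.05), while DESeq2 called 17, 3 of them higher, and limma-voom 11, 3 of them higher. All 25543 genes gave 5405 at that unadjusted p, 3297 DESeq2 calls and 1554 limma-voom calls. Of the 30 identity genes 19 were lower and 5 higher in both litters, with a median of -0.66 (-0.33 in litter 1, -0.84 in litter 2). Beside them stand 31.4% lower and 37.6% higher over all genes and the median of -0.24 over protein-coding genes of at least 2 TPM. The all-gene shares include 8127 genes that are not protein-coding, with a median change of 0.7. Without the WT library of litter 2 the list median was -0.39. Mecom, a stem cell transcription factor, was at 14.0 and 20.8 TPM in KO and 40.9 and 44.8 TPM in WT (log2 -1.13, SE 0.29, adjusted p = 0.0757). Tek, the angiopoietin receptor, was at 3.14 and 2.94 TPM in KO and 7.22 and 7.42 TPM in WT (log2 -1.37, SE 0.40, adjusted p = 0.0957) and was the 1 member changed 2-fold in both litters. Mecom and Tek were chosen after their values were seen. On the other side of 0, Ifitm1, an interferon-induced membrane gene abundant in stem cells, was at 1770 and 2050 TPM in KO and 1020 and 1020 TPM in WT (log2 1.07, SE 0.25, adjusted p = 0.0659). Its neighbour Ifitm3 was at 1620 and 1100 TPM in KO and 638 and 759 TPM in WT (log2 1.11, SE 0.29, adjusted p = 0.0774). Kit and Ly6a, the genes behind the gate, belong to this list and lay on opposite sides, and their part in its median was not tested.

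Surface and niche genes gave 3 calls in 30, all lower: Jam3, Emcn and Mmrn1. Jam3, a junction protein that holds stem cells in the niche, was at 2.17 and 2.55 TPM in KO and 7.70 and 12.9 TPM in WT (log2 -2.11, SE 0.36, adjusted p = 0.0326). Emcn, a sialomucin shared by endothelium and stem cells, was at 5.73 and 2.84 TPM in KO and 21.2 and 25.1 TPM in WT (log2 -2.10, SE 0.35, adjusted p = 0.0274). Emcn is also on the stroma and endothelium list, whose other 19 tested members gave no call; Cdh5, which defines endothelium, was at most 0.0659 TPM in the old libraries. S1pr1, the sphingosine phosphate receptor that guides egress, was at 3.54 and 5.02 TPM in KO and 15.5 and 16.8 TPM in WT (log2 -1.73, SE 0.26, adjusted p = 0.0198, named after its values were seen). The niche list had 19 members lower and 5 higher in both litters and a median of -0.53, which was -0.35 without the WT library of litter 2. Of all genes 31.4% were lower and 37.6% higher, and the protein-coding median was -0.24.

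Genes that rise in aged stem cells gave 2 calls in 35 in edgeR's test, Mmrn1 and Fhl1, both lower in old KO. DESeq2 called 10 lower and 2 higher and limma-voom 5 lower and 2 higher, beside 3297 and 1554 calls over all 25543 genes. At least 2-fold in both litters, 4 members were lower and 3 higher, beside 1.78% and 12.1% of all genes. Fhl1, a LIM-domain protein, was at 5.39 and 7.02 TPM in KO and 22.8 and 31.0 TPM in WT (log2 -1.81, SE 0.28, adjusted p = 0.0213). The list's median was -0.49 (-0.30 without the WT library of litter 2), with 20 members lower and 8 higher in both litters. Beside them stand 31.4% lower and 37.6% higher over all genes and the protein-coding median of -0.24. The list's median transcript length was 2684 bases. Protein-coding genes binned at median lengths of 2454 and 2846 bases stood at -0.44 and -0.47. With the length trend removed the list median was -0.49. Among megakaryocyte and platelet genes Gp1bb was called higher and Plek, the pleckstrin of platelets and leukocytes, lower. Plek was at 14.6 and 23.6 TPM in KO and 67.4 and 66.2 TPM in WT (log2 -1.64, SE 0.24, adjusted p = 0.0192). The summed level of the 24 platelet genes was 1270 and 1230 TPM in KO and 1830 and 2070 TPM in WT, so these libraries did not overlap in the sum.

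Immediate early and stress genes gave 3 lower calls and 1 higher one in 31 tested. Dusp1, a phosphatase that ends MAP kinase signals, was at 21.7 and 23.6 TPM in KO and 73.6 and 79.4 TPM in WT (log2 -1.42, SE 0.21, adjusted p = 0.0198). Egr1, a zinc finger factor linked to stem cell quiescence, was at 12.0 and 12.6 TPM in KO and 33.6 and 37.9 TPM in WT (log2 -1.33, SE 0.22, adjusted p = 0.0281). Jun, the partner of Fos, was at 5.27 and 13.4 TPM in KO and 16.4 and 69.1 TPM in WT (log2 -1.98, SE 0.51, adjusted p = 0.0757). Hsp90aa1, an inducible chaperone and the 1 higher call, was at 1550 and 1140 TPM in KO and 600.0 and 495 TPM in WT (log2 0.95, SE 0.18, adjusted p = 0.0458). The Hsp90aa1 call was lost with the length trend removed (adjusted p = 0.0772), with the litter block (0.0911) and without the WT library of litter 1 (0.163). Jun and Hsp90aa1 were named after their values were seen. Within the list 16 members were lower and 4 higher in both litters, the median was -0.50, and Fosb and Socs3 moved 2-fold in opposite directions. Over all genes 31.4% were lower and 37.6% higher, and the protein-coding median was -0.24. The list median was -0.19 without the WT library of litter 2 and -0.78 without the KO library of litter 2.

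Among 27 tested quiescence and p53 target genes Btg2 and Sesn1 were called, both lower. Btg2, an antiproliferative p53 target, was at 8.23 and 10.1 TPM in KO and 27.6 and 24.9 TPM in WT (log2 -1.32, SE 0.23, adjusted p = 0.0326). Sesn1, a stress-induced regulator of mTORC1 named after its values were seen, was at 66.9 and 81.8 TPM in KO and 178 and 177 TPM in WT (log2 -1.06, SE 0.19, adjusted p = 0.0336). Tsc22d3, the glucocorticoid-induced leucine zipper, named in the same way, was at 112 and 113 TPM in KO and 447 and 278 TPM in WT (log2 -1.45, SE 0.21, adjusted p = 0.0192). It passed with the litter block (adjusted p = 0.0433). None of 30 S phase genes and none of 30 G2 and M phase genes was called in edgeR's test. Of them 7 and 4 had an unadjusted p under 0.05, DESeq2 called 4 of each, all higher, and limma-voom 2 and 1, all higher. All 25543 genes gave 5405 at that unadjusted p, 3297 DESeq2 calls and 1554 limma-voom calls. Both lists were thus near or under the share of all genes. Ube2c, a mitotic ubiquitin-conjugating enzyme, came nearest among the abundant genes of these lists, at 415 and 460 TPM in KO and 328 and 202 TPM in WT (log2 0.98, SE 0.20, adjusted p = 0.0513). Tyms, the thymidylate synthase of S phase, was at 456 and 499 TPM in KO and 353 and 301 TPM in WT (log2 0.69, SE 0.18, adjusted p = 0.0795).

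Of 24 myeloid progenitor granule genes tested, 3 were called higher (Ctsg, Plac8 and Nkg7) and 1 lower (Gfi1). In both litters 15 were higher and 3 lower, beside 37.6% and 31.4% of all genes. The list median was 0.81 (1.06 in litter 1, 0.42 in litter 2). The median was 0.40 with the trend over transcript length removed, 0.44 without the WT library of litter 1 and 0.50 without the KO library of litter 2. Plac8, a small cysteine-rich protein of early progenitors, was at 1030 and 1090 TPM in KO and 481 and 456 TPM in WT (log2 1.39, SE 0.21, adjusted p = 0.0213). Nkg7, a granule membrane gene named after its values were seen, was at 770 and 791 TPM in KO and 366 and 398 TPM in WT (log2 1.23, SE 0.22, adjusted p = 0.0333). The summed level was 7220 and 8530 TPM in KO and 4620 and 5770 TPM in WT. Elane, the elastase of the same granules, went opposite ways: 165 and 232 TPM in KO and 73.6 and 488 TPM in WT. Fcnb, a ficolin of the same list, did so too, at 9.25 and 1.78 TPM in KO and 1.73 and 19.9 TPM in WT. The calls of Plac8 and Nkg7 were lost without the WT library of litter 1 (adjusted p = 0.105 and 0.124) and with the trend over transcript length removed (adjusted p = 0.0769 and 0.143).

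Later granulocyte genes gave no consistent change. Of 24 tested genes of mature neutrophils 13 moved at least 2-fold in opposite directions in the 2 litters, beside the 4.37% of all genes. None was called in edgeR's test, 6 had an unadjusted p under 0.05, DESeq2 called 2 and limma-voom 1. The median was 1.54 in litter 1 and -2.43 in litter 2, and its sign over both litters changed with the processing. The summed level was 781 and 532 TPM in KO and 534 and 1850 TPM in WT. In the list of 21 mast cell, basophil and eosinophil genes, 5 moved 2-fold in opposite directions (Prg2, Epx, Ear1, Ear2 and Ear6, eosinophil granule genes), with Prg2 at 9.30 and -1.21 in litters 1 and 2 on the log2 CPM scale. Of that list edgeR's test called none, 8 had an unadjusted p under 0.05, DESeq2 called 4 and limma-voom 2, all lower. Beside this list and the neutrophil list, all 25543 genes gave 5405 at that unadjusted p, 3297 DESeq2 calls and 1554 limma-voom calls. Tpsb2, a tryptase of mast cells, was at 0.921 and 0.940 TPM in KO and 8.21 and 6.59 TPM in WT (log2 -2.83, SE 0.69, adjusted p = 0.0702). Cma1, a chymase, was at 0.875 and 1.32 TPM in KO and 4.95 and 3.72 TPM in WT (log2 -1.76, SE 0.45, adjusted p = 0.0767). Prss34, a basophil protease, was at 1.18 and 46.6 TPM in KO and 20.7 and 193 TPM in WT (log2 -2.44, SE 0.79, adjusted p = 0.117). The first 2 had separate groups and no call, and were chosen after their values were seen. Prss34 was lower in KO within each litter, but its groups overlapped. Mcpt8, the protease that defines basophils, was on the other side in each litter, at 28.8 and 105 TPM in KO and 15.1 and 67.0 TPM in WT (log2 0.88, SE 0.47, adjusted p = 0.302).

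Antigen presentation and antibody genes also reversed between litters. Cd74, the class II chaperone, was at 1020 and 415 TPM in KO and 498 and 1230 TPM in WT. The class II genes H2-Aa, H2-Ab1 and H2-Eb1 followed it, at 1.59 and -1.55, 1.08 and -1.25, and 1.57 and -1.34 in litters 1 and 2 on the log2 CPM scale. Igkc, the kappa light chain constant region, was at 1870 and 288 TPM in KO and 333 and 4210 TPM in WT, and Jchain, the joining chain of secreted antibodies, followed it at 58.9 and 17.5 TPM in KO and 22.3 and 294 TPM in WT. Of the antigen receptor's signalling chains in B cells, Cd79a did not exceed 3.68 TPM, while Cd79b was level across the libraries, at 83.3 and 78.7 TPM in KO and 80.8 and 77.9 TPM in WT. Cd74, H2-Aa, H2-Ab1, H2-Eb1 and Igkc, together with Ngp, Prg2 and Elane, are the 8 most abundant genes with 2-fold opposite changes. Of 24 monocyte, macrophage and dendritic cell genes Cd68 and Ms4a6c were called higher. In both litters 12 were higher and 4 lower, beside 37.6% and 31.4% of all genes. The list median was 0.24. It was -0.01 with the length trend removed, 0.11 without the WT library of litter 1 and 0.75 without that of litter 2. The macrophage genes Adgre1 and C1qa were at most 0.904 and 0.915 TPM in the old libraries.

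Of 29 red cell genes 19 were lower and 1 higher in both litters, with a median of -0.43 (-0.82 without the KO library of litter 1). Over all genes 31.4% were lower and 37.6% higher, and the protein-coding median was -0.24. The 1 call, Hbb-bs, did not pass once litter entered as a block (adjusted p = 0.137). Hba-a1, an alpha globin with a near-identical copy, was at 3.18 and 0.103 TPM in KO and 11 and 138 TPM in WT (log2 -4.34, SE 1.19, adjusted p = 0.0842, chosen after its values were seen). Car1, a carbonic anhydrase of erythroid progenitors, was at 44.8 and 40.5 TPM in KO and 168 and 246 TPM in WT (log2 -2.0, SE 0.43, adjusted p = 0.0596). Gata1, the factor that drives this lineage, was at 17.7 and 16.0 TPM in KO and 22.2 and 15.5 TPM in WT, with overlapping groups. The summed level of the list was 1580 and 1540 TPM in KO and 1970 and 3290 TPM in WT.

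**Figure D3:**
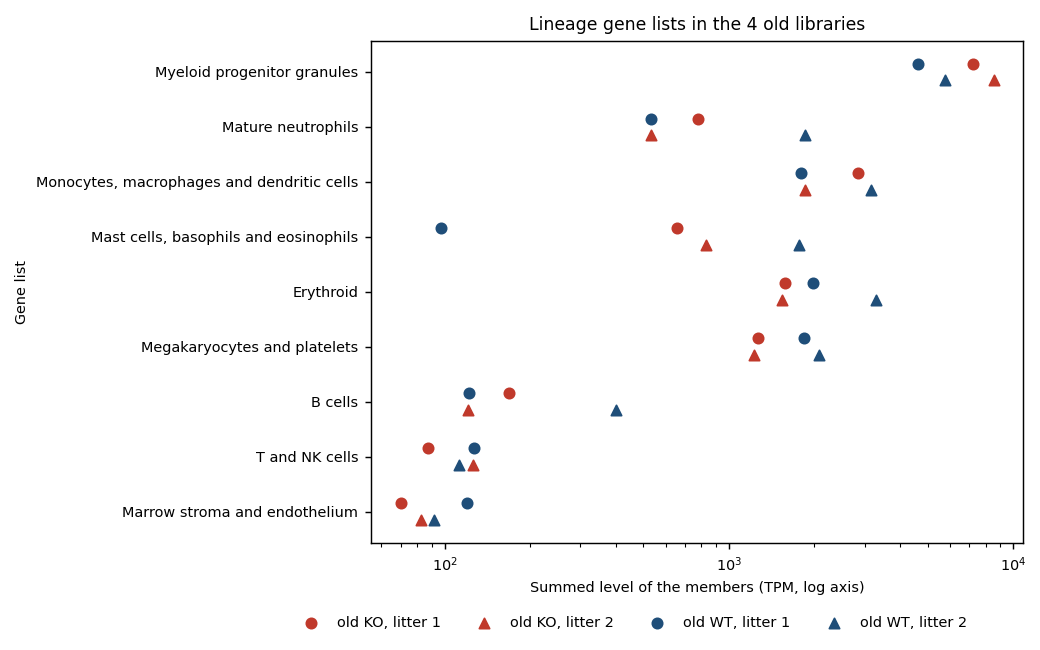
Summed TPM (log axis) of the members of 9 lineage lists in each old library, red for KO and blue for WT, circles for litter 1 and triangles for litter 2. For mast cells, basophils and eosinophils the WT libraries lie on both sides of the KO libraries, at 97.4 and 1760 TPM against 655 and 829 TPM.

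Partners of Asxl2 were tested as a list of 12, in which Asxl2 was the 1 call. Bap1 was at 36.8 and 47.6 TPM in KO and 89.0 and 82.5 TPM in WT (log2 -0.78, SE 0.21, adjusted p = 0.0814). Ogt, the sugar transferase that binds the complex, was at 66.2 and 83.9 TPM in KO and 129 and 123 TPM in WT (log2 -0.78, SE 0.24, adjusted p = 0.110). Both were separate between groups without a call, and separation of 2 against 2 libraries has an exact permutation p of 0.333. Asxl1, the paralog most studied in blood, was at 10.9 and 12.1 TPM in KO and 16.9 and 11.2 TPM in WT (log2 -0.14, SE 0.26, adjusted p = 0.791), and its direction turned without the WT library of litter 1 (log2 0.018). Asxl3 was at 0.696 and 0.529 TPM in KO and 0.312 and 0.0551 TPM in WT (log2 2.03, SE 0.75, adjusted p = 0.159). None of the 30 Polycomb genes was called in edgeR's test (10 had an unadjusted p under 0.05), DESeq2 called 8 and limma-voom 5, all lower. In both litters 20 were lower and 4 higher, with a median of -0.33. Their median transcript length was 2166 bases, and protein-coding genes binned at a median length of 2109 bases stood at -0.36. With the length trend removed the Polycomb median was -0.39. All 25543 genes gave 5405 at that unadjusted p, 3297 DESeq2 calls and 1554 limma-voom calls. Of all genes 31.4% were lower and 37.6% higher in both litters, and the median over protein-coding genes of at least 2 TPM was -0.24. Ezh2, the main methyltransferase, was at 82.9 and 102 TPM in KO and 85.3 and 79.2 TPM in WT, with overlapping groups. Bmi1, a core component of repressive complex 1, was at 22.7 and 32.8 TPM in KO and 48.4 and 68.5 TPM in WT (log2 -0.84, SE 0.20, adjusted p = 0.0685).

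The next 5 lists, of signalling and of leukemia genes, gave no call in edgeR's test. Of 28 genes of NF-kB and inflammation 18 were lower and 3 higher in both litters, with a median of -0.45 (-0.78 without the KO library of litter 2). Of 27 TGF-beta, Wnt and Notch genes 19 were lower and 4 higher, with a median of -0.43. Their median transcript length was 3084 bases. Protein-coding genes binned at median lengths of 2846 and 3402 bases stood at -0.47 and -0.5, so the list was not lower than these. With the length trend removed its median was -0.38. Of 30 cytokine receptors 14 were lower and 5 higher, with a median of -0.21 (-0.42 without the KO library of litter 2). At an unadjusted p under 0.05 these lists held 12, 9 and 10 genes, DESeq2 called 12, 6 and 6 (1, 1 and 0 of them higher), and limma-voom called 2, 2 and 3, all lower. Beside all 5 lists, the 25543 genes tested gave 5405 at that unadjusted p, 3297 DESeq2 calls and 1554 limma-voom calls. Of all genes 31.4% were lower and 37.6% higher in both litters, and the median over protein-coding genes of at least 2 TPM was -0.24. Interferon response genes split by litter, with a median of 0.70 in litter 1 and -0.51 in litter 2, and the sign of the median over both turned under 11 of the 20 alternatives. In that list of 32, 9 genes had an unadjusted p under 0.05, DESeq2 called 9, 7 of them higher, and limma-voom 6, all higher. Of 38 DNA methylation and myeloid leukemia genes 22 were lower and 12 higher in both litters. Npm1, a nucleolar chaperone often mutated in leukemia, was on the higher side, at 683 and 823 TPM in KO and 499 and 545 TPM in WT (log2 0.75, SE 0.18, adjusted p = 0.0693). In this list 6 genes had an unadjusted p under 0.05, DESeq2 called 6 and limma-voom 3.

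Ribosomal protein genes were the most one-sided of the 29 lists by counts: 73 of 76 were higher and 1 lower in both litters, beside the 37.6% and 31.4% of all genes. Their median was 0.87, with 1.21 in litter 1 and 0.50 in litter 2. Rpl27 and Rpl29, chosen after their values were seen, were the 2 calls: Rpl27 was at 277 and 252 TPM in KO and 179 and 125 TPM in WT (log2 1.03, SE 0.20, adjusted p = 0.0488). Rpl29 was at 386 and 293 TPM in KO and 221 and 160 TPM in WT (log2 1.05, SE 0.21, adjusted p = 0.0488). Nuclear-encoded respiratory genes were alike, with 48 of 53 higher and 2 lower in both litters, a median of 0.60 (0.37 without the WT library of litter 1, 0.94 without that of litter 2) and calls for Cox5a, a cytochrome oxidase subunit (641 and 584 against 327 and 304 TPM), and Cycs, cytochrome c (61.6 and 95.4 against 42.0 and 55.6 TPM). Transcripts of both lists are short, with median lengths of 479 and 493 bases, and length moved with the KO against WT difference over 10112 protein-coding genes of at least 5 TPM. Over 10 bins of rising length, the median change was 0.55 in the bin of the shortest and -0.46 in that of the longest transcripts. Bins with median lengths of 2109, 2454, 2846 and 3402 bases stood at -0.36, -0.44, -0.47 and -0.5. For lists of transcripts that long, these bins are a nearer comparison than the protein-coding median of -0.24. With that trend removed the median over all genes tested went from 0.067 to -0.14, the ribosomal median was 0.22 and the respiratory one 0.039, and Cycs was the 1 of these 4 genes still called (adjusted p = 0.0265). Rpl27 (adjusted p = 0.438), Rpl29 (0.385) and Cox5a (0.274) were not.

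**Figure D4:**
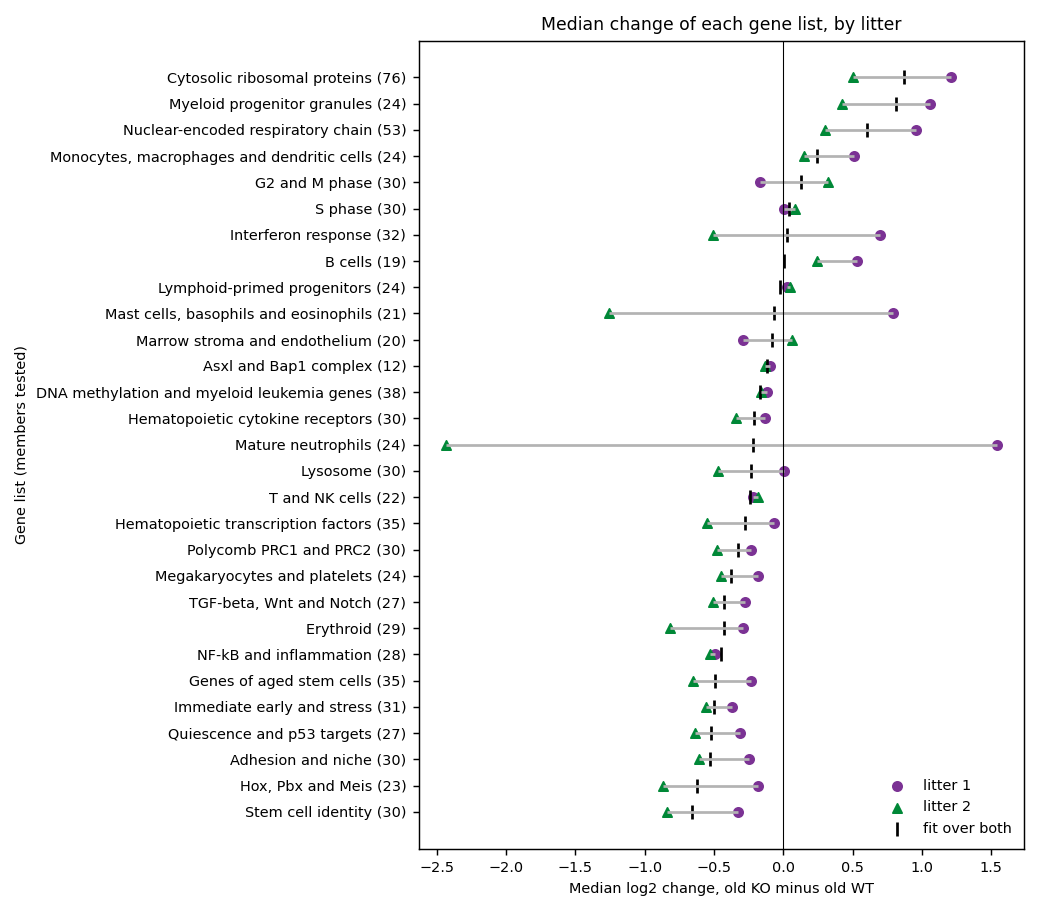
Median log2 change, old KO minus old WT, of each of the 29 gene lists, with the number of members tested. Purple circles are litter 1, green triangles are litter 2, the black bar is the fit over both, and grey lines join the litters. Ribosomal and respiratory genes lie right of 0 in both litters, stem cell identity lies left of 0 in both, and mature neutrophils lie at 1.54 and -2.43.

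The young libraries share no mouse with the old ones, although both entered 1 fit for batch and spread, so the old calls were looked up there. Of the 98 genes called lower and 2-fold lower in both old litters, 92 were lower and 1 was higher in both young litters, and 32 were at least 2-fold lower in both. Over all genes tested, 26.1% were lower and 1.44% at least 2-fold lower in both young litters. Of the 42 called higher, 35 were higher and 1 was lower in both young litters and 7 at least 2-fold higher, beside 27.9% and 3.23% of all genes. Young KO mice had 2.69 and 2.22 TPM of Eya1 where the young WT mice had 30.9 and 18.4 TPM. Its differences of -2.92 and -3.49 in young litters 3 and 4 stand beside -2.64 and -3.30 in the old ones, and those of Gkn3 were 3.28 and 3.96 beside 3.28 and 4.30.

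Among the lowest genes Fos alone was higher in KO in both young litters. Young KO libraries had 2.03 and 2.92 TPM and young WT libraries 1.49 and 2.16 TPM, so that all 4 young libraries lay under the old KO level of 3.65 TPM and the old WT mice alone were high. The genotype by age interaction, the test of whether old and young changes differ, was -3.74 for Fos (edgeR adjusted p = 0.222) and missed the threshold. Mab21l2 was near 0 in all young libraries, so its fall could hardly recur there. It was at 0 TPM in KO and 0.138 TPM in WT of litter 3, and at 0.0198 TPM in both of litter 4. Its differences were -3.21 and -0.079 in litters 3 and 4. Among the highest genes Ctsg alone was not higher in KO in both young litters. It was at 101 and 95.3 TPM in the young KO mice and 87.5 and 135 TPM in the young WT mice. Its interaction was 2.19 (edgeR adjusted p = 1.0). Phf11d rose little in the young mice, at 6.97 and 4.99 TPM in KO and 6.01 and 4.03 TPM in WT. Its young differences were 0.33 and 0.31, and those of Tmeff2 were 0.15 and 1.88 in litters 3 and 4. Phf11d, Lgals1 and Plk2 were the next by interaction p, and none passed. Dusp1 and Egr1 had litter differences between -0.33 and -0.0011 in the young mice, against -1.63 to -1.02 in the old, and an adjusted interaction p of 1.0 each. Over all genes the interaction called 1 of 25543 (0.00391%), Ighv7-1, and 505 had an unadjusted p under 0.05.

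**Figure D5:**
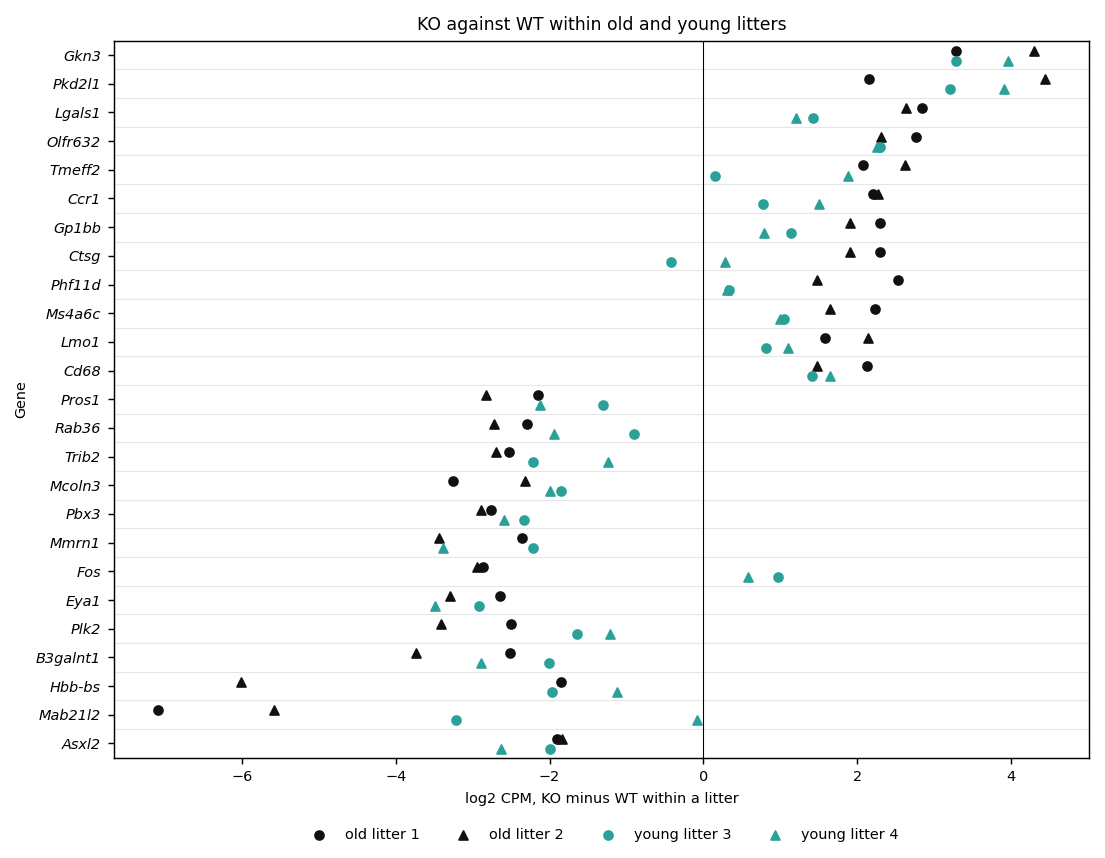
KO minus WT difference in log2 CPM within each litter for the 12 highest genes, the 12 lowest genes and Asxl2. Black marks are old litters 1 (circles) and 2 (triangles), and teal marks are young litters 3 (circles) and 4 (triangles). Fos lies near -2.9 in the old litters and at 0.97 and 0.58 in the young ones, and Ctsg lies at 2.29 and 1.90 against -0.42 and 0.28.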

How the data were processed

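PolyA RNA of 8 LSK libraries was used, 4 of them old. The deposited tables give, per the file headers, estimated counts, TPM and effective length (bases) for 115088 transcripts a library. The submitters' processing notes name kallisto, DESeq2 and mm10; versions were not given in the sources used here. Transcripts were matched by identifier to GENCODE (114200 matched), and the 888 others, 0.259% to 0.47% of a library's counts, were left out. Estimated counts deposited by the authors were summed per gene and rounded for count models, and deposited TPM were summed as levels.

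Old library totals ran from 45737972 to 78259996 estimated counts. Replicates of old KO and old WT differed by a chi-square per degree of freedom of 96.2 and 78.9, so counting error is small beside the spread of mice. Genes were filtered (minimum count 10, minimum total 15), scaled by TMM and tested with edgeR 4.0.16 in R 4.3.3 (4 groups plus batch, 8 libraries, Benjamini-Hochberg adjusted p under 0.05, all 25543 genes). The interaction came from the same fit. Alternatives used limma 3.58.1, DESeq2 1.42.0, litter blocks and left-out libraries. Fits were tested on simulated data. Tables were made with pandas 2.3.3 and numpy 2.4.6 in Python 3.11.15, and figures with matplotlib 3.10.9.

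The labels pair the mice by litter: deviations from group means correlated at 0.0606 (old) and 0.12 (young) between littermates.

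Members, the 29 gene lists and the naming rule were chosen with earlier results of these data known. The rule names Asxl2, Asxl1, Asxl3 and Bap1; the 12 highest and 12 lowest among genes called, 2-fold in both litters and at 2 TPM or more, without predicted models, antigen receptor segments, Xist, Tsix and Y-linked genes; up to 4 called members of a list, or abundant ones where fewer than 2; the 8 most abundant opposite genes; and the leading interaction genes.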

Additional observations from a re-analysis of the deposited data

Results flagged for a closer look

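Ighv7-1, an antibody heavy chain variable segment, was the 1 gene whose KO against WT change differed between old and young mice in edgeR's interaction test (adjusted p = 0.0068). It was at 26 TPM in the old KO library of litter 1, at 0.194 TPM in the old WT library of that litter and at 0 TPM in both old libraries of litter 2. Among young mice it was at 436 TPM in 1 WT library and at 0 TPM in the other 3. The level was high in 2 mice. Without the old KO or the old WT library of litter 1, or the young KO or the young WT library of litter 3, it was not called. It was also not called with DESeq2, limma-voom, limma on log2 TPM, the neutrophil covariate or no batch term.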

How the results depend on the processing

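Main count of calls in old KO against old WT: 166. It was 2516 without the filter on low counts, 3297 with DESeq2, 1554 with limma-voom, 1553 and 1242 with limma on log2(TPM + 1) and log2(TPM + 0.1), 1023 with a neutrophil covariate and 707 with the length trend removed. With the replicate block (litter) it was 12 over 8 libraries and 1496 over the 4 old ones. Without batch or block edgeR called 0 (3954 at an unadjusted p under 0.05), and without the block in old libraries alone 3. Leaving out 1 library gave 6 to 3709. The interaction count of 1 became 75 without the filter, 8 with DESeq2, 0 with limma-voom, both log2(TPM) fits and no batch term, 3 with the neutrophil covariate and 2 with the length trend removed, and 0 to 27 without 1 library. Genes 2-fold in both litters were 733 on log2(TPM + 1), 6915 at 1.5-fold, 622 at 4-fold and, chosen after seeing the data, 527 among protein-coding genes of at least 2 TPM.

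For the 46 called genes named, 638 results under alternatives kept direction and call, and 279 kept direction and lost the call. Without single libraries Ighv7-1 ran from -2.33 (WT, litter 1) to 9.31, and Asxl1, not called, from -0.33 to 0.018 (WT, litter 1). The cause was not tested. Low counts limit Mab21l2 and Ighv7-1 (0 in an old library), Hba-a1 (2), Ngp (11) and Asxl3 (17).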
